A study of Homo sapiens with 6 samples.

Results

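The genes described here are 57 glycosyltransferase genes of the Golgi apparatus, without the fucosyltransferases. They were taken from the deposited expression table by symbol, and all 57 were found, each once, among 60546 gene identifiers. The rule used the symbols and no measured value, but the list was drawn up with earlier results of these data known. The list holds 14 GALNT genes, 4 genes of O-glycan cores, 16 sialyltransferases, 6 N-glycan branching genes, 10 lactosamine genes, 1 O-mannose gene and 6 glycosaminoglycan genes. By the study's description, RNA was sequenced from HCT-116, an established human colon carcinoma cell line. The cells had been infected with the viral vector PMSCV carrying GOLPH3 (HCT-116-PMSCV-GOLPH3) or with the empty vector (HCT-116-PMSCV-Vector). The study's methods describe both as stable lines made from HCT-116 by viral infection. The identity of the cells was not tested here, and markers of cell types that differ between the groups are given below. Each group has 3 libraries, which the study's methods describe as different generations of the line, so p-values measure the spread between generations and not between separate infections. Each title also holds the letter P with a number, whose meaning the labels do not give. The number is 8, 12 and 13 for GOLPH3 replicates 1, 2 and 3, and 12, 11 and 13 for Vector replicates 1, 2 and 3, so P12 and P13 each hold 1 library of either group.

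Glycosyltransferases are membrane enzymes that move a sugar from a nucleotide sugar onto a growing glycan as a protein or lipid passes through the Golgi stack. GALNT enzymes start mucin-type O-glycans, core enzymes and lactosamine enzymes extend them, MGAT enzymes add the branches of N-glycans, and sialyltransferases cap the ends. GOLPH3 is a Golgi protein that binds the short cytosolic tails of several of these enzymes and helps to hold them in the stack, a role at the protein level. RNA-seq measures the transcripts alone.

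The deposited values were read counts divided by 1 size factor per library and are called normalized reads. The libraries held 15708846 to 21900764 recovered reads, of which mitochondrial genes took 4.41% to 9.97%. At this depth 3 reads correspond to 2.47 to 3.29 normalized reads, and a gene at 0 could have had a level up to that limit, counting error only. The GOLPH3 transcript itself was measured at 1629.5, 1272 and 1383 normalized reads in the GOLPH3-labelled libraries, against 1968, 1892 and 1472 in the Vector-labelled ones. The groups overlapped, with a log2 difference of -0.31 (95% confidence interval -0.91 to 0.28, adjusted p = 0.609 in limma). An exact two-sided permutation test gave p = 0.2, and 0.1 is the smallest value that 3 libraries in each group allow. The groups are therefore named by their labels: GOLPH3 library and Vector library mean a library labelled so, and every difference is GOLPH3 minus Vector. The study assessed GOLPH3 protein in its HCT-116 lines by western blot and reported that the overexpressing line had been made. The values given here are of RNA.

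RefSeq promoter windows on GRCh38.p14 were matched by symbol for 44 of the 57 genes. They are shown for 3 of the genes with an adjusted p under 0.05, 2 lower and 1 higher, whose window lies at the measured locus and for the most part outside exons. The B3GNT3 window lies inside the GENCODE 29 interval of its gene, between annotated exons. Each line gives the bases just upstream of a RefSeq start, 5′ to 3′ on the strand of the gene, cut before the first base that GENCODE 29 holds as exon. The 250 bases upstream were searched for CACCTG or CAGGTG, the 2 orientations of an E-box that the Snail and ZEB repressors bind, and none of these 3 genes had a match there. Among the other genes with an adjusted p under 0.05, B3GNT7 (higher) had 1 match and GALNT13 (lower) had 1 in each of its windows. The windows of GALNT13 lie outside its measured interval. GALNT16 (lower) had no match, and MGAT3 and ST6GALNAC2 had no window.

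ST8SIA4, chr5:100903283-100903432, minus strand: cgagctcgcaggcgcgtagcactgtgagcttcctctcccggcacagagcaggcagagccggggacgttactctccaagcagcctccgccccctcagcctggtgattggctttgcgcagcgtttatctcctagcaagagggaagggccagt
ST6GALNAC3, chr1:76074596-76074718, plus strand: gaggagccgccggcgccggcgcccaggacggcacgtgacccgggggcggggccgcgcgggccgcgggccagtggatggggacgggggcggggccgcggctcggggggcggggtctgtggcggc
B3GNT3, chr19:17794988-17795109, plus strand: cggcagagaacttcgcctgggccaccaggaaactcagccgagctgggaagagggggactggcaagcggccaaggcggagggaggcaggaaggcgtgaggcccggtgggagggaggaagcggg

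The motif was found in the 250 bases upstream of the start in 17.5% of all 35116 RefSeq promoters and in 20.3% of the promoters of the matched genes. Counted by gene, it occurred for 13 of the 44 genes. Some genes have several promoters, so this count is not comparable with the shares by promoter. The 3 windows differ in CpG content. The observed over expected CpG ratio over 250 bases was 1.00 for ST6GALNAC3, 0.69 for ST8SIA4 and 0.63 for B3GNT3. The median was 0.56 over all promoters and 0.80 over the promoters of the matched genes. A match is a description of letters and not evidence of binding.

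Of the 57 genes, 55 reached 1 normalized read in 3 or more libraries and were tested. ST6GAL2 and ST6GALNAC1, both sialyltransferases, were below that, with at most 1.72 and 2.15 normalized reads in any library. Across all 26536 genes tested with limma, 5.07% had a Benjamini-Hochberg adjusted p under 0.05, 0.953% higher and 4.12% lower. Among the 55 glycosyltransferase genes 8 did (14.5%). Of these, 3, B3GNT3, B3GNT7 and ST6GALNAC2, were higher in the GOLPH3 libraries, and 5, MGAT3, GALNT16, ST8SIA4, GALNT13 and ST6GALNAC3, were lower. ST8SIA4 passed the low-value filter through the Vector libraries alone, and without it the count was 7 of 54. At an unadjusted p under 0.05 the count was 14 (25.5%), 9 higher and 5 lower, against 17.6% of all genes (7.51% higher, 10.1% lower). The groups did not overlap for 15 genes (27.3%), 7 higher and 8 lower, against 22.0% of all genes (9.20% higher, 12.8% lower). On the recovered reads DESeq2 called 9 of the 55 genes that it gave an adjusted p, where 8.68% of all such genes passed, and edgeR called 7 of 53, where 6.58% passed. DESeq2 added GALNT12 to the 8 genes, and edgeR left out ST6GALNAC3. The limma count of 8 was 5 without GOLPH3 replicate 2, 4 without GOLPH3 replicate 3 and 3 without Vector replicate 1 or 3. ST8SIA4 could not be tested without a Vector library. Whether the losses with a library left out are particular to the glycosyltransferase genes was not tested. The limma count was 26, with 22.9% of all genes passing, when the P number entered as a block. The median log2 difference over the 55 genes was 0.00, against 0.02 over all genes tested, and 28 genes were above 0 and 27 below.

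**Figure D1:**
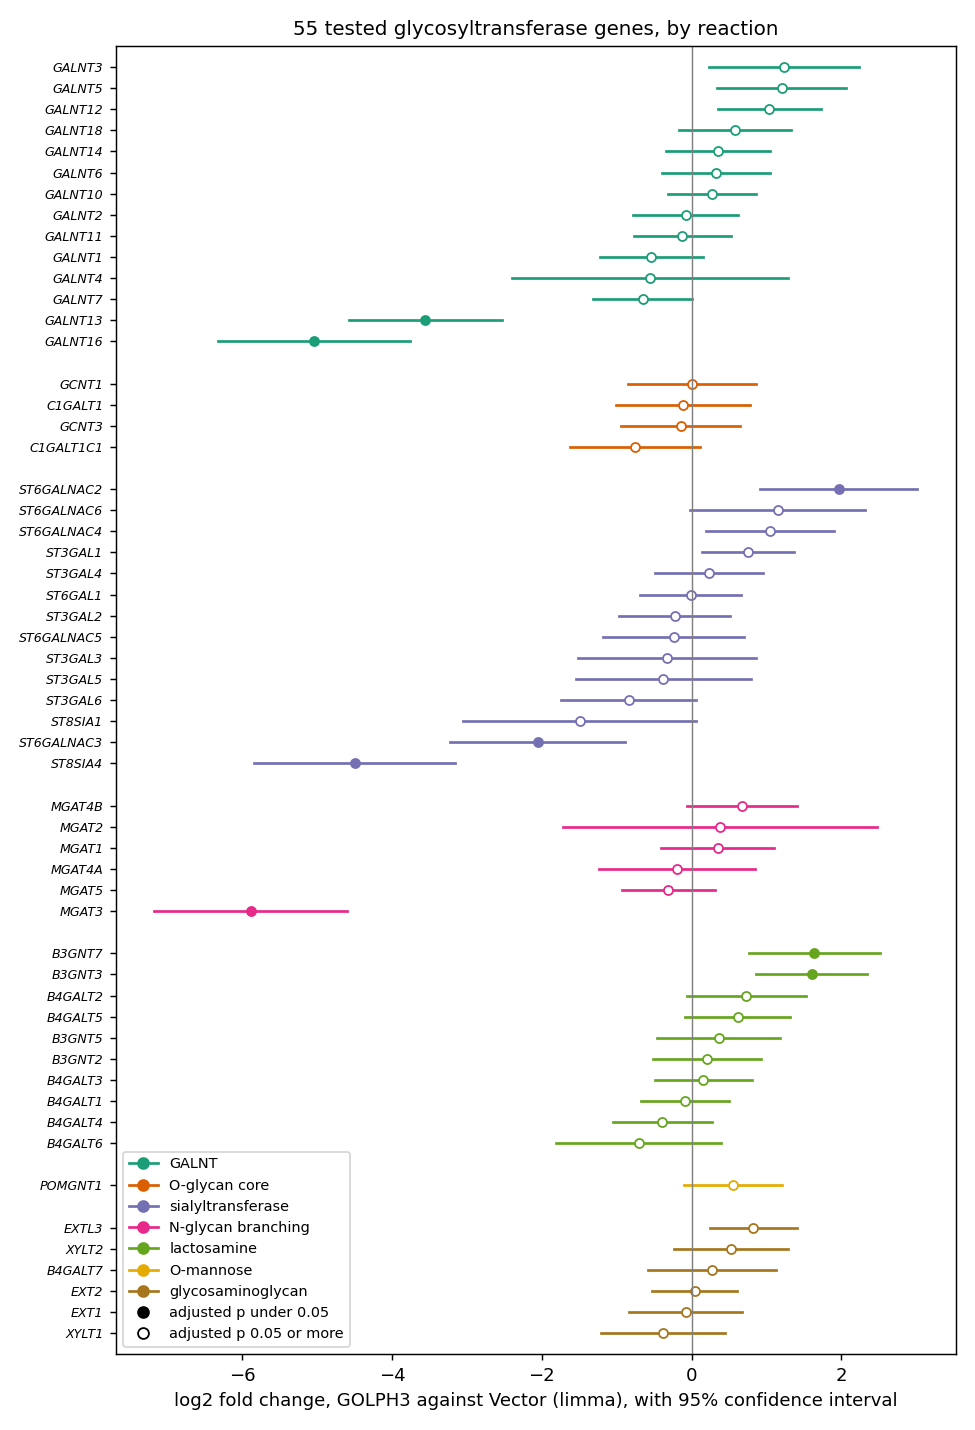
Log2 difference of the 55 tested glycosyltransferase genes (x axis, GOLPH3 against Vector in limma) by reaction, with bars for the 95% confidence interval. Filled points mark the 8 genes with an adjusted p under 0.05; GALNT16, GALNT13, ST8SIA4, ST6GALNAC3 and MGAT3 lie to the left and ST6GALNAC2, B3GNT7 and B3GNT3 to the right, while the other 47 intervals lie between -3.05 and 2.48.

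The 14 GALNT genes start mucin-type O-glycosylation by placing N-acetylgalactosamine on serine or threonine. GALNT16 and GALNT13 were lower in the GOLPH3 libraries, none was higher by the adjusted p, and 12 did not pass. GALNT16 (ENSG00000100626, GRCh38 chr14:69259277-69357033, plus strand) had 6.44, 4.12 and 3.20 normalized reads in the GOLPH3 libraries and 204, 82.2 and 336 in the Vector libraries. Every Vector library was above every GOLPH3 library, with means of 4.59 ± 1.67 (SD, n = 3) and 207 ± 127 (SD, n = 3). The log2 difference was -5.04 (standard error 0.59, adjusted p = 0.000181 in limma), and within the P12 and P13 libraries it was -5.32 and -6.33. Such values within P12 and P13 come from libraries that also made the call and are not separate support for it. GALNT13 (ENSG00000144278, chr2:153871913-154453849, plus strand) had 18.2, 9.07 and 9.61 normalized reads in the GOLPH3 libraries against 120.4, 182 and 149 in the Vector libraries. The groups were again apart, by -3.55 on the log2 scale (standard error 0.47, adjusted p = 0.000493 in limma), with -3.59 within P12 and -3.82 within P13.

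Both genes were minor members of the family in the Vector libraries, where GALNT16 made up 1.34% ± 0.894 (SD, n = 3) and GALNT13 1.54% ± 0.232 (SD, n = 3) of the summed level of the 14 genes per kilobase of exon. In the GOLPH3 libraries the shares were 0.0261% and 0.115%. GALNT1, a broadly expressed member, had the highest level per kilobase, 275 normalized reads per kilobase in the GOLPH3 libraries and 394 in the Vector libraries, and its log2 difference of -0.54 (95% confidence interval -1.22 to 0.15) did not pass the test. GALNT3, GALNT5 and GALNT12 had an unadjusted p under 0.05, with log2 differences of 1.24, 1.20 and 1.04 and adjusted p of 0.176, 0.118 and 0.0891 in limma. GALNT12, a colon-expressed member, had 524, 755 and 943 normalized reads in the GOLPH3 libraries and 395, 313 and 347 in the Vector libraries, so its groups did not overlap. In DESeq2 on the recovered reads it passed, with an adjusted p of 0.0339. GALNT12 shares 21.1% of its exon length with exons of AL136084.2, and how reads in shared exons were counted is not given in the sources used here.

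**Figure D2:**
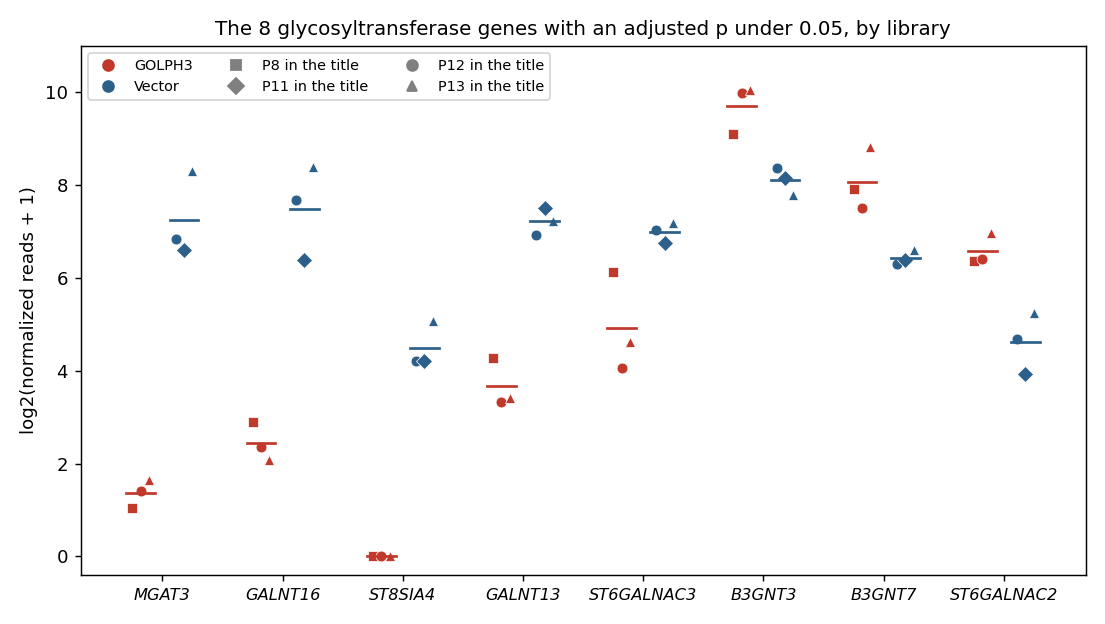
Level of the 8 genes with an adjusted p under 0.05 (y axis, log2 of normalized reads + 1) in each library, with color for the group, marker shape for the number after P in the title and a bar for the group mean. The 3 libraries of either group do not overlap in any of the 8 genes, and ST8SIA4 is at 0 in all 3 libraries labelled GOLPH3.

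The 4 genes that build O-glycan cores did not pass the test, adjusted or unadjusted. Their log2 differences ran from -0.75 for C1GALT1C1, the chaperone that the core 1 galactosyltransferase needs, to 0.00 for GCNT1, which makes the core 2 branch. C1GALT1C1 was the most abundant of the 4 per kilobase, with 301, 132 and 265 normalized reads in the GOLPH3 libraries and 284, 535 and 333 in the Vector libraries. The groups overlapped, and the 95% confidence interval ran from -1.62 to 0.11.

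Sialyltransferases cap glycans with sialic acid, and of the 14 tested genes ST6GALNAC2 was higher, ST8SIA4 and ST6GALNAC3 were lower, and 11 did not pass. ST8SIA4 (ENSG00000113532, chr5:100806935-100903266, minus strand) encodes a polysialyltransferase, one of the enzymes that build polysialic acid chains. It had no read in any of the libraries labelled GOLPH3 and 17.5, 17.5 and 32.6 normalized reads in the Vector libraries. Taken against the limit of 3 reads in each GOLPH3 library, it was at least 7.60-fold lower. It entered the test only through the Vector libraries, so its adjusted p is not read as support. ST6GALNAC3 (ENSG00000184005, chr1:76074719-76634601, plus strand), which adds sialic acid to N-acetylgalactosamine, had 68.7, 15.7 and 23.5 normalized reads in the GOLPH3 libraries and 131, 106 and 144 in the Vector libraries. Its log2 difference was -2.06 (standard error 0.54, adjusted p = 0.0487 in limma), with -2.98 within P12 and -2.57 within P13. The GOLPH3 library with P8 was the nearest to the Vector libraries. This call lay next to the threshold and was lost in 10 of 15 alternatives, where the adjusted p reached 0.171.

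ST6GALNAC2 (ENSG00000070731, chr17:76565379-76586956, minus strand) adds sialic acid to O-glycans at the N-acetylgalactosamine. It was measured at 81.6, 84.1 and 124 normalized reads in the GOLPH3 libraries and 24.7, 14.2 and 36.9 in the Vector libraries. The log2 difference was 1.96 (standard error 0.48, adjusted p = 0.0359 in limma) and was close to this within both P numbers, at 1.73 and 1.72. The call was lost with any 1 library left out, where the adjusted p was 0.0524 to 0.171. Other genes share 57.2% of its exon length, above all AC015802.6, whose own log2 difference was 1.56 with an adjusted p of 0.147 in limma. ST6GALNAC4 was the sialyltransferase with the highest level per kilobase, 399 in the GOLPH3 libraries and 202 in the Vector libraries. Its log2 difference was 1.05, with an unadjusted p under 0.05 and an adjusted p of 0.178 in limma, and its groups overlapped. ST3GAL1, which sialylates core 1 O-glycans, had 715, 941 and 966 normalized reads against 491, 574 and 481 (log2 difference 0.75, adjusted p = 0.18 in limma). ST6GAL1, which caps N-glycans, had a log2 difference of -0.01 (95% confidence interval -0.68 to 0.66).

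ST3GAL5, the GM3 ganglioside synthase, varied more within the GOLPH3 libraries than between the groups. It had 237, 52.8 and 247 normalized reads in the GOLPH3 libraries and 155, 221 and 198 in the Vector libraries. The GOLPH3 library with P12 alone was low, so that the difference was -1.54 within P12 and 0.31 within P13. ST8SIA1, which makes the GD3 ganglioside, was near the limit of detection. It had 2.15, 3.30 and 0 normalized reads in the GOLPH3 libraries and 6.18, 4.38 and 6.87 in the Vector libraries. Its groups did not overlap, and the log2 difference of -1.50 did not pass the test (adjusted p = 0.304 in limma).

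MGAT3 (ENSG00000128268, chr22:39457344-39492194, plus strand) encodes the enzyme that adds the bisecting N-acetylglucosamine to N-glycans, and it had the lowest log2 difference of the 55 genes. It was measured at 1.07, 1.65 and 2.13 normalized reads in the GOLPH3 libraries, which is 5 reads in all, and at 114, 96.4 and 316 in the Vector libraries, which is 567 reads. After scaling, the Vector level was 115 times the GOLPH3 level, with an exact 95% interval from 48.8 to 354 that covers counting error only. The limma log2 difference was -5.89 (standard error 0.59, adjusted p = 5.71e-05), with -5.44 within P12 and -6.66 within P13. MGAT3 made up 3.91% ± 1.63 (SD, n = 3) of the summed level per kilobase of the 6 N-glycan branching genes in the Vector libraries and 0.0323% ± 0.00779 (SD, n = 3) in the GOLPH3 libraries.

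The other 5 N-glycan branching genes did not pass the test, with log2 differences from -0.31 to 0.67. MGAT4B, which starts a further branch on the core mannose, was the most abundant per kilobase, with 2695, 2768 and 4009 normalized reads in the GOLPH3 libraries and 1849, 1341 and 3001 in the Vector libraries. The groups overlapped (log2 difference 0.67, 95% confidence interval -0.07 to 1.40). MGAT5, which adds the branch that carries long lactosamine chains, had a log2 difference of -0.31 (95% confidence interval -0.93 to 0.31). MGAT2 had only 1.07 to 19.7 normalized reads, and 91.9% of its exon length lies in exons of the antisense gene ENSG00000258377 (AL139099.1 in GENCODE 29), which was listed at 0 in all 6 libraries.

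The 10 lactosamine genes add galactose or N-acetylglucosamine to extend glycan chains, and 2 of them, B3GNT3 and B3GNT7, were higher in the GOLPH3 libraries while none was lower by the adjusted p. B3GNT3 (ENSG00000179913, chr19:17794828-17813082, plus strand), which extends core 1 O-glycans, had 551, 1009 and 1062 normalized reads in the GOLPH3 libraries and 330.4, 286 and 221 in the Vector libraries. The groups did not overlap, and the log2 difference was 1.60 (standard error 0.34, adjusted p = 0.0162 in limma), with 1.61 within P12 and 2.26 within P13. B3GNT7 (ENSG00000156966, chr2:231395543-231401164, plus strand), an enzyme of keratan sulfate chains, had 239, 181 and 448 normalized reads against 78.2, 83.3 and 96.1. Its log2 difference was 1.64 (standard error 0.40, adjusted p = 0.0346 in limma), with 1.20 within P12 and 2.21 within P13. Leaving out a library moved the adjusted p to between 0.00502 and 0.0904 for B3GNT3 and to between 0.0231 and 0.191 for B3GNT7.

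B3GNT3 took 10.0% ± 3.04 (SD, n = 3) of the summed level per kilobase of the 10 genes in the GOLPH3 libraries and 4.45% ± 0.669 (SD, n = 3) in the Vector libraries. The most abundant of all 57 genes per kilobase was B4GALT5, a galactosyltransferase of lactosylceramide synthesis, at 1703 normalized reads per kilobase in the GOLPH3 libraries and 1173 in the Vector libraries. Its 3 GOLPH3 libraries lay between 7497 and 8534 normalized reads and its Vector libraries between 3528 and 7868, so the groups overlapped (log2 difference 0.61, 95% confidence interval -0.09 to 1.32). B4GALT1, the main galactosyltransferase of N-glycan antennae, had a log2 difference of -0.09 (95% confidence interval -0.68 to 0.51).

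**Figure D3:**
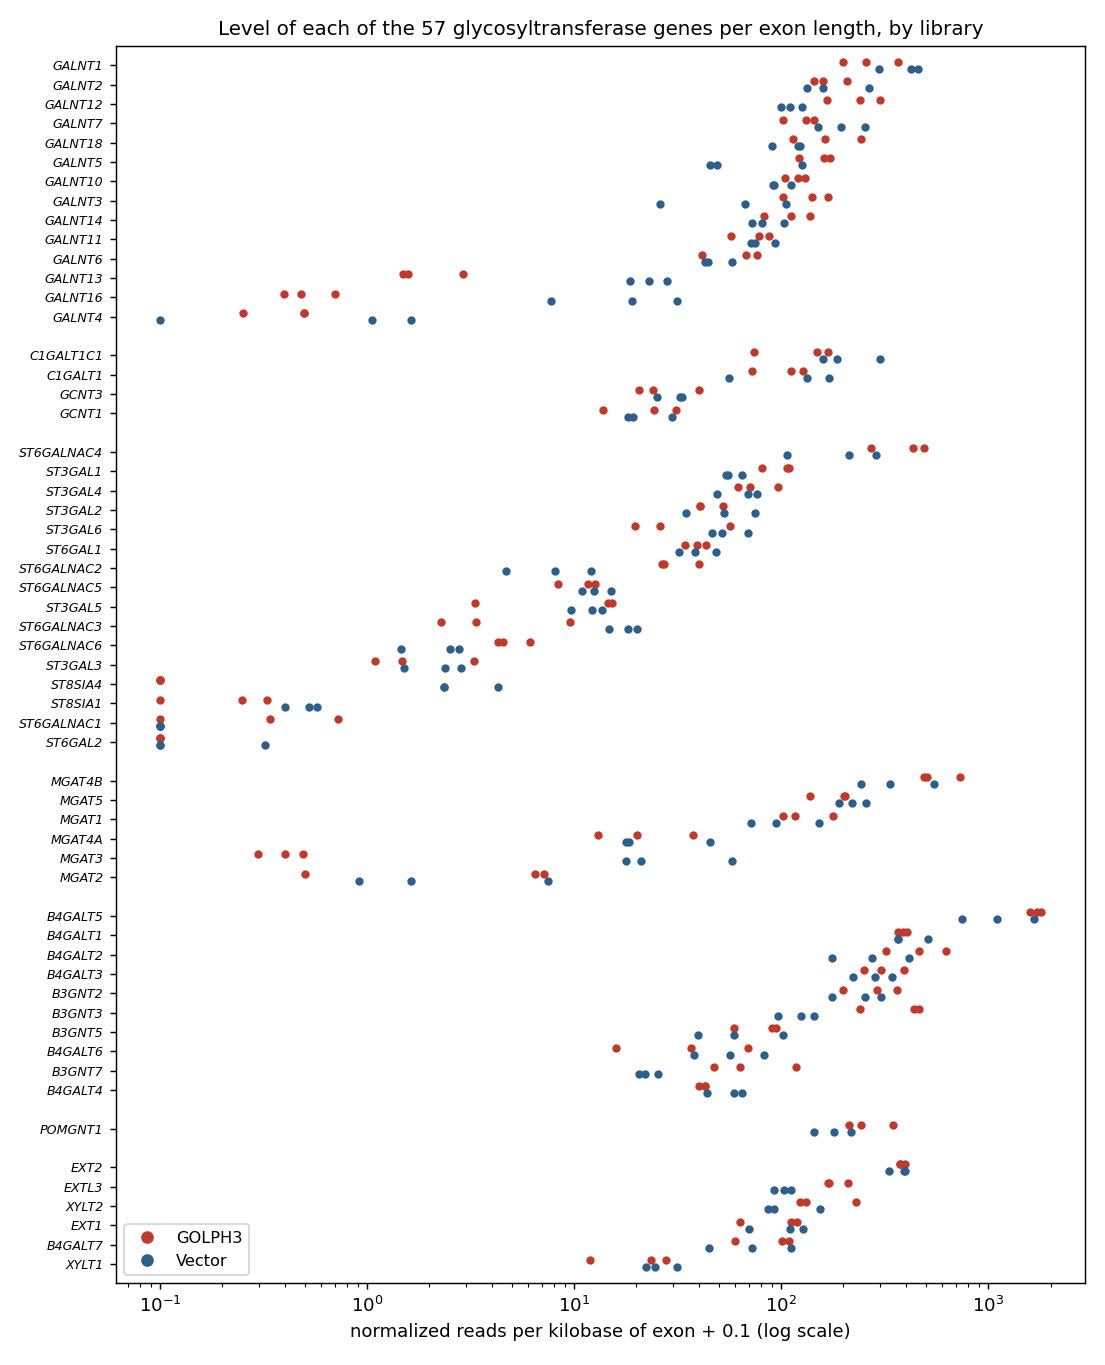
Level of all 57 glycosyltransferase genes (rows, by reaction and by mean level) in normalized reads per kilobase of exon + 0.1 on a log scale (x axis), with 1 point for each of the 6 libraries. B4GALT5 lies highest, and MGAT3, GALNT16, GALNT13 and ST8SIA4 are the rows in which the red GOLPH3 points lie far left of the blue Vector points.

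POMGNT1, which extends O-mannose glycans, had 1318, 1501 and 2157 normalized reads in the GOLPH3 libraries and 1117, 897 and 1349.9 in the Vector libraries, and the difference did not pass the test (log2 difference 0.55, 95% confidence interval -0.10 to 1.21). The 6 glycosaminoglycan genes did not pass the adjusted test either. EXTL3, which helps to start heparan sulfate chains, had 2225, 2239 and 2777 normalized reads against 1225, 1370.5 and 1480.4. Its groups did not overlap and differed by 0.83 on the log2 scale, with an adjusted p of 0.11 in limma. EXT2, a subunit of the heparan sulfate polymerase, had the highest level per kilobase of this family and the narrowest interval, a log2 difference of 0.04 from -0.52 to 0.60.

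Among the genes, 6 encode enzymes that were reported to bind GOLPH3 or to be held in the Golgi by it, namely POMGNT1, EXT1, EXT2, GCNT1, ST6GAL1 and B4GALT5. None had an adjusted or an unadjusted p under 0.05 in limma, DESeq2 gave no adjusted p under 0.05, and their groups all overlapped. With the P number as a block, B4GALT5 and POMGNT1 passed, with an adjusted p of 0.000755 and 0.0264 in limma, and with P8 and P11 joined these were 0.0397 and 0.0194. In these fits 22.9% and 20.9% of all genes passed, and the first leaves 1 residual degree of freedom. Their unblocked median log2 difference was 0.02, with a range from -0.08 for EXT1 to 0.61 for B4GALT5. EXT1 had 524, 994 and 929.8 normalized reads against 1063, 584 and 919.98, and GCNT1 had 287, 127 and 224 against 168, 273 and 177. The confidence intervals still allow changes of up to 1.32 for B4GALT5 on the log2 scale.

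**Figure D4:**
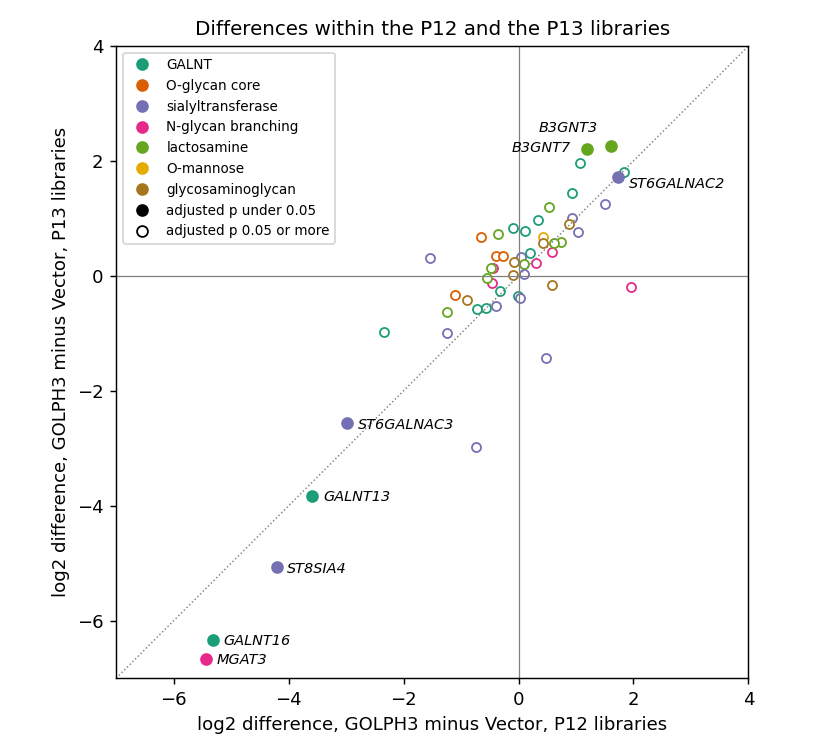
Log2 difference within the 2 libraries with P12 (x axis) against that within the 2 libraries with P13 (y axis) for the 55 tested glycosyltransferase genes, with color for the reaction, filled points for an adjusted p under 0.05 and a dotted line of equality. Of the 55 points, 41 have the same sign on both axes; the filled points could not have differed in sign, since their groups do not overlap.

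The 4 libraries with a shared P number gave the same direction in 41 of the 55 tested genes (74.5%), against 68.3% of all genes tested. The median within P12 was -0.0045 and within P13 it was 0.22. With 1 library of each group there is no test of these differences. The genes with the largest difference between the P12 and the P13 libraries were MGAT3, ST3GAL5 and B3GNT7, with log2 differences of -1.44, -1.09 and -1.07 between the means of the 2 P12 and the 2 P13 libraries.

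Genes that supply, trim or extend the same glycans were read from lists of their own. Of 22 genes of sugar nucleotide synthesis and transport, 1 passed, SLC35B4, a transporter of nucleotide sugars into the Golgi, with 752, 518 and 525 normalized reads against 1392, 1411 and 1587 (log2 difference -1.31, adjusted p = 0.0173 in limma). GNE, the first enzyme of sialic acid synthesis, had 391, 227 and 259 normalized reads against 516, 526 and 675 with an adjusted p of 0.112 in limma, and SLC35D2, another such transporter, had a log2 difference of 1.30 with an adjusted p of 0.101. None of the 8 genes of N-glycan trimming passed, and 1 had an unadjusted p under 0.05 in limma. Of 23 genes of glycosaminoglycan assembly and sulfation 1 was higher, CHPF, a chondroitin polymerizing factor, with 7371, 6248 and 11858 normalized reads against 3060.1, 1959.9 and 4435 (log2 difference 1.45, adjusted p = 0.0372 in limma). None of the 4 tested glycosphingolipid genes passed, and 1, A4GALT, had an unadjusted p under 0.05 in limma. The 8 subunits of the COG complex, which tethers the vesicles that recycle these enzymes, had no adjusted or unadjusted p under 0.05 in limma and no adjusted p under 0.05 in DESeq2 or edgeR, with log2 differences from -0.37 to 0.30.

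Of 23 relatives in the same gene families that the list of 57 does not hold, 17 were tested and 2 were lower. GCNT2, which branches lactosamine chains, had 11.8, 11.5 and 9.61 normalized reads in the GOLPH3 libraries and 58.7, 61.3 and 66.1 in the Vector libraries (log2 difference -2.40, adjusted p = 0.00921 in limma). ST8SIA2, the other main polysialyltransferase, had 0, 1.65 and 0 against 22.6, 3.29 and 22.3 (adjusted p = 0.0372 in limma). Both polysialyltransferase genes were thus at or under 3 reads in every GOLPH3 library. ST8SIA2 was also at 3 reads in Vector replicate 2, so its call rests on values near the limit of detection.

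Markers of cell types differed between the same groups, in lists chosen with earlier results of these data known. Their counts describe the groups and are not separate support. A list of 10 genes expressed in HEK293, a human embryonic kidney line, summed to 142 to 156 normalized reads in the GOLPH3 libraries and to 8964, 5212 and 14876 in Vector replicates 1, 2 and 3. The list is not specific to HEK293. It holds CDH2 and VIM, whose proteins N-cadherin and vimentin the study used as mesenchymal markers. Of 9 tested, 8 were lower with an adjusted p under 0.05, and IRS4, NEFM, UCHL1, HOXD13 and HAND1 were at 0 in every GOLPH3 library. Of the 5 lower genes, MGAT3, GALNT16 and ST6GALNAC3 had their highest level in Vector replicate 3 and their lowest in Vector replicate 2, as the marker sum did. ST8SIA4 was highest in replicate 3 and nearly equal in the other two, and GALNT13 was highest in replicate 2. The share of all genes tested with the order of the marker sum is not given here, so no link is read from it. The part of these markers in the lower glycosyltransferase genes was not tested. In bulk RNA, fewer cells of a type and less RNA per cell cannot be told apart.

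The 14 markers of colon epithelium summed to 65964 to 138875 normalized reads in the GOLPH3 libraries and to 31434 to 42282 in the Vector libraries. Of 12 tested, 3 were higher by the adjusted p, KRT18, KRT19 and ELF3, while KRT20 was at 0 in all libraries and CDX1 and VIL1 had at most 1.07 and 3.30 normalized reads. Of the 12, 10 log2 differences were above 0 and 2 below, from -1.79 to 1.92. The part of these markers in the higher B3GNT3, B3GNT7 and ST6GALNAC2 was not tested. The 10 fibroblast markers summed to 825 to 1517 against 488 to 811, with DCN at 0 throughout and 1 of 6 tested, PDGFRA, lower by the adjusted p. Of the 6, 3 log2 differences were above 0 and 3 below, from -3.19 to 1.57. At an unadjusted p under 0.05 in limma, 2 were higher and 3 lower.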

How the data were processed

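RNA-seq libraries described as HCT-116 cells with PMSCV-GOLPH3 or PMSCV-Vector were compared, 3 of each. The deposited signal is a read count that the authors divided by 1 size factor for each library. The submitters' processing notes name fastp 0.20.0, HISAT2 2.1.0, Cufflinks, featureCounts 1.6.1, DESeq2 and GRCh38, without roles. The annotation and the counting of reads in shared exons or on either strand are not given in the sources used here. The table had 60590 rows for 60546 identifiers, and 44 second rows were added to the first. Of the nonzero values in a library, 99.98% to 100.00% were whole multiples of 1 step (tolerance 0.02), so whole reads were recovered.

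limma 3.58.1 (R 4.3.3, prior variance dependent on the mean) was fitted to log2(value + 1) over all 26536 genes with at least 1 in at least 3 libraries, with Benjamini-Hochberg adjustment over all of them, two-sided, and called at 0.05. Fold changes are on the log2(value + 1) scale and understate the change of low genes. DESeq2 1.42.0 and edgeR 4.0.16 (quasi-likelihood) on recovered reads, another scaling, filter and pseudocount, blocks and each library left out were alternatives. Levels between genes are per kilobase of the union of exons in GENCODE 29. Within a group the chi-square per degree of freedom between 2 libraries was at least 65.3, so no library was a repeat of another. Same-numbered replicates had correlations of their deviations from the group means of -0.23, -0.15 and 0.26, so the replicate numbers do not pair the libraries. The same correlation was 0.26 between the 2 P12 libraries, 0.26 between the 2 P13 libraries and 0.33 between P8 and P11. Since P8 and P11 share no number and the meaning of P is not given, the P number entered as an alternative block.

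The genes named are those with an adjusted or unadjusted p under 0.05, those at 3 reads or fewer in every library of 1 group and at 10 normalized reads or more on average in the other, the highest per kilobase of each family, the reported GOLPH3 clients and the 3 with the largest P12 to P13 difference. From other lists those with an adjusted p under 0.05 and up to 2 more were named. ST6GAL2, ST6GALNAC1, ST8SIA1, MGAT2, MGAT5, B4GALT1, GCNT3, GALNT4, GALNT7, the overlapping genes and those that a block added were named after their values were seen. The 57 genes, the lists and the markers were chosen with earlier results of these data known. The scripts were tested on simulated data.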

Additional observations from a re-analysis of the deposited data

Results flagged for a closer look

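GCNT3, which makes branched O-glycan cores, differed in direction between the pairs of libraries that share a P number. Its log2 difference was -0.66 within P12, with 133 normalized reads in the library labelled GOLPH3 against 209.97 in the one labelled Vector, and 0.68 within P13, with 258 against 161. It is listed here because the libraries moved in opposite directions by more than 0.5 on the log2 scale. Whether the 2 differences differ was not tested, since each rests on 1 library of either group, and over all 6 libraries the log2 difference was -0.15 (adjusted p = 0.875 in limma).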

How the results depend on the processing

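GALNT13, GALNT16 and MGAT3 kept an adjusted p under 0.05 in all 15 alternatives. ST8SIA4, which enters the test only through the Vector libraries, could not be tested without one of them, since too few libraries then reached the minimum. B3GNT3 lost the call in 4 alternatives, B3GNT7 in 5, ST6GALNAC2 in 7 and ST6GALNAC3 in 10, and no call turned direction. Without a call in any alternative, EXT2 (-0.04 to 0.09), EXT1 (-0.33 to 0.21), GCNT1 (-0.25 to 0.33), ST6GAL1 (-0.15 to 0.15) and ST3GAL5 (-0.75 to 0.35) crossed 0 on the log2 scale. Instead of 8, the count with an adjusted p under 0.05 was 7 with quantile scaling (4.86% of all genes passing) and 8 with no filter (3.92%). It was 7 with a minimum of 10 (6.64%) and 6 with a pseudocount of 0.1 (4.14%). It was 9 with DESeq2 (8.68%), which added GALNT12, and 7 with edgeR (6.58%). It was 6 with the replicate number as a block, without ST6GALNAC2 and ST6GALNAC3, and the block changed no other call. With 1 library left out the count was 3 to 8 (5 and 4 without GOLPH3 replicates 2 and 3, and 3 without Vector replicate 1 or 3), and the unadjusted count was 10 to 19. Whether these losses are particular to the glycosyltransferase genes was not tested. With the P number as a block the count was 26 (15 higher, 11 lower), where 22.9% of all genes passed, and the unadjusted count was 32. The P8 and P11 libraries then stand alone in their blocks, which leaves 1 residual degree of freedom. With P8 and P11 joined, a choice made after the data were seen, the counts were 25 and 27, and 20.9% of all genes passed. All 8 genes were among the 26 and the 25. The GOLPH3 transcript stayed below 0 and did not pass, from -0.44 to -0.23. The depth limits what can be said of ST6GAL2, ST6GALNAC1, ST8SIA1, GALNT4 and MGAT2, which had 20 normalized reads or fewer in every library. For GALNT4 and MGAT2, 93.2% and 91.9% of the exon length also lies in exons of another gene, POC1B-GALNT4 and AL139099.1. How reads in shared exons were counted is not given, so their low values need not mean low expression.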

Other observations

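The 18 genes that passed with the P number as a block and not without it were B3GNT5, B4GALT2, B4GALT5, B4GALT6, C1GALT1C1, EXTL3, GALNT1, GALNT12, GALNT18, GALNT3, GALNT5, GALNT7, MGAT4B, POMGNT1, ST3GAL1, ST3GAL6, ST6GALNAC4 and XYLT1. B4GALT5 and POMGNT1 among them are reported GOLPH3 clients, and 22.9% of all genes passed in that fit. These calls rest on the 4 libraries with P12 or P13. GALNT7, a GALNT enzyme that acts on sites next to existing O-glycans, had groups that did not overlap, with 987, 900.5 and 698 normalized reads in the GOLPH3 libraries and 1339, 1752 and 1034 in the Vector libraries, and an adjusted p of 0.285 in limma without the block.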
